A study of Mus musculus with 30 samples.

Results

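The late granule genes of maturing neutrophils studied here are Ltf, Camp, Ngp, Cd177, Mmp8, Mmp9, S100a8, S100a9, Retnlg and Padi4. They were taken by gene symbol from the count tables of bone marrow (BM) and of adipose tissue macrophages (ATMs). All 10 symbols were present in both tables, 10 of 13353 genes in BM and 10 of 17059 in ATMs, and all 10 passed the low-count filter in each. The 5 groups were then compared within each tissue, 3 libraries per group.

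All recipients were irradiated mice that had received BM cells of Shp2E76K/+;LysM-Cre+ donors together with Boy/J competitor cells, as the protocol in the labels states for the whole series without naming the donor of single samples. Lean recipients are taken here as the WT group, for which no treatment is given. For ATMs, a figure legend of the authors contrasts Ob/Ob recipients of mutant cells with those of WT cells. Another names WT and Ob/Ob recipients of mutant cells, so the makeup of the ATM WT group is not settled. Leptin-deficient Ob/Ob recipients received vehicle (Vehicle), the GLP-1R agonist beinaglutide at 3 mg/kg, an anti–IL-17A antibody at 200 µg per mouse 3 times weekly, or both agents (Combo), for 30 days starting 8 weeks after transplantation. Mice were 12 to 14 weeks old according to the labels, which list C57BL/6J as the genotype of every sample and include both sexes. The authors report a slightly younger age for recipients at irradiation, so the labelled age may not be the age at sampling. LysM-Cre acts in cells of the myeloid lineage, neutrophils and macrophages among them, so the RNA of each library can come from mutant donor cells, competitor cells and cells of the host, which the counts do not separate. The BM samples are whole marrow, and the ATMs are described by the authors as F4/80+ cells sorted from fat.

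A neutrophil fills its granules in a fixed order as it matures. Primary granules form first, at the promyelocyte stage, and hold myeloperoxidase and elastase. Specific granules with lactoferrin and cathelicidin follow, then gelatinase granules with matrix metalloproteinases, while S100A8 and S100A9 accumulate in the cytosol and peptidylarginine deiminase 4 reaches the nucleus. Transcription of several specific granule genes, Ltf and Camp among them, is known to depend on C/EBPε.

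On GRCm38, 4 of the genes lie on chromosome 9, at chr9:111019271-111042767 (Ltf), chr9:109847379-109849617 (Camp), chr9:110419747-110423012 (Ngp) and chr9:7558456-7568485 (Mmp8). S100a8 (chr3:90668978-90670035) and S100a9 (chr3:90692632-90695721) are neighbors on chromosome 3. Cd177 is at chr7:24743983-24760311, Mmp9 at chr2:164940780-164955850, Retnlg at chr16:48872621-48874496 and Padi4 at chr4:140745865-140774236. No exon base of any of them is shared with another annotated gene, so the authors' counting of a read for every gene it overlaps adds no reads from annotated neighbors.

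The promoters of 9 of the 10 genes were found in a RefSeq table of build GRCm38.p6. The 250 bases before each RefSeq start site were searched on both strands for TTGCNNAA, letters of a C/EBP site, and for GAGGAAG, letters of a PU.1 site. A RefSeq start can differ from the gene start given above, and the Ltf window, for example, ends inside the gene as given there. TTGCNNAA was found in 5 of the 9, Ltf, Ngp (at 2 positions), Mmp8, S100a9 and Retnlg, and in 9.56% of the 32851 promoters searched. GAGGAAG was found in Mmp8 and S100a8 and in 10.6% of all promoters. These matches are a description of the letters and not of bound sites. The following 4 promoters are shown because they hold TTGCNNAA and belong to genes that responded differently in the results. Ltf is given for chr9:111019042-111019291 (plus strand), Mmp8 for chr9:7558179-7558428 (plus strand), S100a9 for chr3:90695722-90695971 (minus strand) and Retnlg for chr16:48872358-48872607 (plus strand), each 5′ to 3′ on the strand of the gene and with the matched letters in capitals.
Ltf promoter: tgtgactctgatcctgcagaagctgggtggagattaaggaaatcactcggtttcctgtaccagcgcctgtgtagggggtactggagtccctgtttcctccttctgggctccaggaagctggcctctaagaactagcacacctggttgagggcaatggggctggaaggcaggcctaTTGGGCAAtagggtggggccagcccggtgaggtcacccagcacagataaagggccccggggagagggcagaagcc
Mmp8 promoter: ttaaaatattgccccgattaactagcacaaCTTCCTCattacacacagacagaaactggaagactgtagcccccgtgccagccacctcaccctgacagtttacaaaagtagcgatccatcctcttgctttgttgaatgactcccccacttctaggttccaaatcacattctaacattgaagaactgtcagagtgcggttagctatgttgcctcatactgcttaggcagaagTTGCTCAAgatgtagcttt
S100a9 promoter: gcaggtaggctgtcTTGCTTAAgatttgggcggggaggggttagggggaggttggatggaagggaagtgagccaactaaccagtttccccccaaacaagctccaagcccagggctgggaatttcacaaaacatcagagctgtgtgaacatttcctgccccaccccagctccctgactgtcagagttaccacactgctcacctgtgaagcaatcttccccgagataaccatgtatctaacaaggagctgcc
Retnlg promoter: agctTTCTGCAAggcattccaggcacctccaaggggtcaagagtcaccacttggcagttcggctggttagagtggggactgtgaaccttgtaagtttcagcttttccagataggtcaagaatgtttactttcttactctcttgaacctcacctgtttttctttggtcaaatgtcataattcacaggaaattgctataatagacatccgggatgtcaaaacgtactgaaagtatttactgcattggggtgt
In the Ltf and Retnlg promoters the capitals mark the match on the opposite strand, in the Mmp8 promoter the first run of capitals is GAGGAAG on the opposite strand and the second is TTGCNNAA, and in S100a9 they mark TTGCNNAA on the printed strand.

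Libraries held 31086184 to 39925495 counts in BM and 24876074 to 45300263 in ATMs, and edgeR's estimate of variation among replicates (biological coefficient) came to 3.51% for BM and 32.5% for ATMs. WT replicate 1 of BM stood apart from the other WT libraries, with a chi-square per gene of 28.3 and 37.2 against them, where other pairs of BM replicates had 2.03 to 4.40. Sex-linked genes differed between groups. Xist, made from the inactive X chromosome, was at 182 to 193 CPM (each count scaled to a common library size with TMM factors) in BM Vehicle and 101 to 105 in BM Combo, and at most 3.26 in the other BM groups. It was at 30.1 to 46.2 CPM in ATM Vehicle and 31.4 to 38.1 in ATM Combo, and at most 1.22 in the other ATM groups, while the Y-linked gene Ddx3y was higher in those other groups. In Vehicle vs WT, Combo vs WT, each single agent vs Vehicle and Combo vs a single agent, treatment or recipient therefore cannot be told apart from this difference in sex-linked transcripts. In Combo vs Vehicle, 4 of 5 sex-linked genes were called in BM, all lower in Combo, and 0 of 5 in ATMs. In BM, treatment in Combo vs Vehicle therefore cannot be told apart from a difference in sex-linked transcripts either. In ATM Vehicle, several defining macrophage markers were low. Of 10 macrophage markers, 6 were called lower than in WT and 2 higher. Adgre1, which encodes F4/80, was at 30.2 to 52.4 CPM against 192 to 230 in WT, and Csf1r at 38.4 to 54.4 against 531 to 556. In each ATM contrast with Vehicle a change within macrophages cannot be told apart from a different makeup of the sorted cells.

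In BM, the 10 genes together took 8.80% to 12.6% of all counts. S100a9 alone gave 37.2% to 43.5% of the counts on the 10 genes in the 5 groups, S100a8 16.0% to 21.0% and Ngp 13.4% to 22.1%. Per kilobase of exon (RPKM), the order in BM WT was S100a9 (91004), S100a8 (33349.8), Ngp (12039), Camp (10566), Retnlg (5263) and Ltf (2349), followed by Mmp9 (589.5), Cd177 (542), Mmp8 (496) and Padi4 (51.6). In BM Vehicle, Retnlg was lower in this order, at 789.8 RPKM, under the 1729 RPKM of Ltf.

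A gene was called in a comparison at a Benjamini-Hochberg adjusted p below 0.05 in edgeR's quasi-likelihood test with an absolute log2 fold change above 1. In BM, 1 of the 10 genes was called in Vehicle vs WT, Retnlg, which was lower, where 19.5% of all genes were called, 9.44% higher and 10% lower. In the GLP-1R agonist group vs Vehicle, Retnlg was the 1 gene called, higher (16.7% of all genes, 7.6% higher and 9.08% lower). In anti–IL-17A vs Vehicle, Retnlg and Mmp9 were higher (16.1%, 7.65% higher and 8.46% lower), and in Combo vs Vehicle Ltf, Cd177, Mmp8, Mmp9 and Retnlg were higher (17.7%, 6.58% higher and 11.1% lower). No member was called lower in the treated BM groups vs Vehicle. By the adjusted p alone, most BM genes passed, 9, 9, 10 and 8 of the 10 in these 4 comparisons, against 76.6%, 72.8%, 73% and 73.8% of all genes. All BM standard errors and p-values rest on the small spread between BM libraries (biological coefficient 3.51%). They may not cover the variation between mice.

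Retnlg encodes a resistin-like secreted protein of granulocytes. In BM it was at 3013, 3160.0 and 3190.1 CPM in the WT libraries and at 467, 464 and 473 CPM in Vehicle. All 3 Vehicle libraries lay far below all WT libraries (log2 fold change -2.74, SE 0.0231, adjusted p = 5.74e-48, edgeR), and no other member fell by as much. It was at 1941, 1928 and 1923 CPM with the GLP-1R agonist, 2759, 2715 and 2733 with anti–IL-17A and 2697, 2665 and 2677 in Combo. Each treated group lay above Vehicle (GLP-1R agonist, log2 fold change 2.04, SE 0.0225, adjusted p = 2.84e-44, edgeR; anti–IL-17A, 2.55, SE 0.0229; Combo, 2.52, SE 0.0229). None reached the WT level, to which anti–IL-17A (log2 fold change -0.19 vs WT) and Combo (-0.22) came nearest. Combo and anti–IL-17A differed by -0.03 (adjusted p = 0.249, edgeR), which did not pass the test.

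Among the specific granule genes, Ltf encodes lactoferrin, an iron-binding protein. In BM it was at 7771, 8339.6 and 8204 CPM in WT, 5814, 6011 and 6075 in Vehicle and 6120.2, 6137 and 6108 with the GLP-1R agonist. Vehicle lay below WT by less than the fold-change limit (log2 fold change -0.44, SE 0.0222, adjusted p = 6.54e-21, edgeR), and the difference between the GLP-1R agonist and Vehicle did not pass the test (log2 fold change 0.04, SE 0.0221, adjusted p = 0.13, edgeR). Ltf was at 10296, 10443 and 10262 CPM with anti–IL-17A and 14940.4, 15047 and 15168 in Combo, the highest group. Combo exceeded Vehicle (log2 fold change 1.33, SE 0.0225, adjusted p = 1.24e-37, edgeR) and also WT (log2 fold change 0.89).

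Camp encodes cathelicidin, an antimicrobial peptide precursor, and Ngp a cathelin-related protein of neutrophil granules. Camp was highest in WT, at 7753, 8050.4 and 8224 CPM, and was at 6587, 6634 and 6786 in Vehicle, 5337, 5157 and 5304 with the GLP-1R agonist, 5062, 5219.8 and 5103 with anti–IL-17A and 6417, 6456 and 6474 in Combo. The differences were small, with log2 fold changes between -0.38 and -0.05 in the 3 treated groups vs Vehicle. Ngp was at 13823, 15053 and 15258 CPM in WT and 26271, 27117 and 27479 in Vehicle, a higher level in all Vehicle libraries that stayed under the fold-change limit (log2 fold change 0.87, SE 0.0248, adjusted p = 5.08e-26, edgeR). With the GLP-1R agonist it was at 14824, 14822 and 14809 CPM, and WT and this group overlapped. It was at 19388, 19382 and 19322 with anti–IL-17A and 27577, 27689.8 and 28112 in Combo. The difference between Combo and Vehicle was 0.04 on the log2 scale (SE 0.0246), where Ltf differed by 1.33.

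Cd177 encodes a surface protein of specific granules and the plasma membrane. In BM it was at 1444, 1593 and 1584 CPM in WT, 1849, 1861 and 1915 in Vehicle, 1640.5, 1612 and 1635 with the GLP-1R agonist, 2204, 2246 and 2209 with anti–IL-17A and 3859.8, 3871 and 3886 in Combo. The Combo libraries stood above all others (log2 fold change 1.05, SE 0.0255, adjusted p = 2.95e-30, edgeR). In the other 3 groups the differences from Vehicle were under the fold-change limit.

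Mmp8 and Mmp9 encode a neutrophil collagenase and a gelatinase, enzymes of specific and gelatinase granules that cleave matrix. Mmp8 was at 1219, 1184 and 1205 CPM in WT, 764, 752 and 739 in Vehicle and 638, 638 and 639.8 with the GLP-1R agonist, so both of these Ob/Ob groups lay below WT. It was at 1265, 1252 and 1245 CPM with anti–IL-17A and 1585, 1591 and 1531 in Combo (Combo vs Vehicle, log2 fold change 1.06, SE 0.0220, adjusted p = 2.19e-34, edgeR). Mmp9 was at 1987, 2149 and 2122 CPM in WT and 1368, 1408 and 1412 in Vehicle. It was at 2096, 2048 and 2072 with the GLP-1R agonist, overlapping WT, 2895, 2929 and 2866 with anti–IL-17A and 3823, 3906 and 3814 in Combo. Mmp9 was thus lowest in Vehicle and highest in Combo (log2 fold change 1.46, SE 0.0240, adjusted p = 4.9e-38, edgeR), with anti–IL-17A between them (log2 fold change 1.05, SE 0.0238, adjusted p = 5.31e-33, edgeR).

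S100a8 and S100a9 encode the subunits of calprotectin, a calcium-binding and zinc-binding complex that makes up much of the neutrophil cytosol and that TLR4 and RAGE can bind. S100a8 was at 28154, 19399 and 21881 CPM in BM WT, 26843, 23693 and 22879 in Vehicle and 25581, 25148 and 22337 in Combo, and these 3 groups overlapped. It was at 14101, 14555 and 15049 with the GLP-1R agonist and 15247, 15762 and 15248 with anti–IL-17A, below every library of the other groups. Vehicle vs WT did not pass the test (log2 fold change 0.08, SE 0.118, adjusted p = 0.549, edgeR). Without WT replicate 1, the library that stood apart, the log2 fold change was 0.25 and passed it (adjusted p = 0.0199, edgeR), and without WT replicate 2 it was -0.0215. On library totals in place of TMM scaling it was -0.0430. The number of members called in BM Vehicle vs WT was 1 with and without WT replicate 1.

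S100a9 was at 48083, 46787 and 47643 CPM in WT and 52439, 52661 and 53686 in Vehicle. It was at 33446, 33096 and 33144 with the GLP-1R agonist, 36903, 37109.5 and 36747 with anti–IL-17A and 50809.9, 50278 and 51719 in Combo. The single agents were thus again below the other 3 groups, by less than the fold-change limit (GLP-1R agonist vs Vehicle, log2 fold change -0.67, SE 0.0190, adjusted p = 1.66e-29, edgeR). Padi4 encodes the deiminase that citrullinates histones in extracellular trap formation. It was at 247, 253 and 249 CPM in WT, 253, 264 and 264 in Vehicle, 209, 201 and 204 with the GLP-1R agonist, 313, 319 and 313 with anti–IL-17A and 429.6, 442 and 425 in Combo, where the log2 fold change vs Vehicle was 0.73.

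Markers of other marrow cells moved with these groups. The 8 B cell markers summed to 1257 to 1295 CPM in BM WT, 361 to 381 in Vehicle, 116 to 117 with the GLP-1R agonist, 403 to 411 with anti–IL-17A and 124 to 129 in Combo, and 4 erythroid genes to 2064 to 2111 CPM with the GLP-1R agonist against 659.6 to 668 in Vehicle. Their part in the members' levels was not tested.

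**Figure D1:**
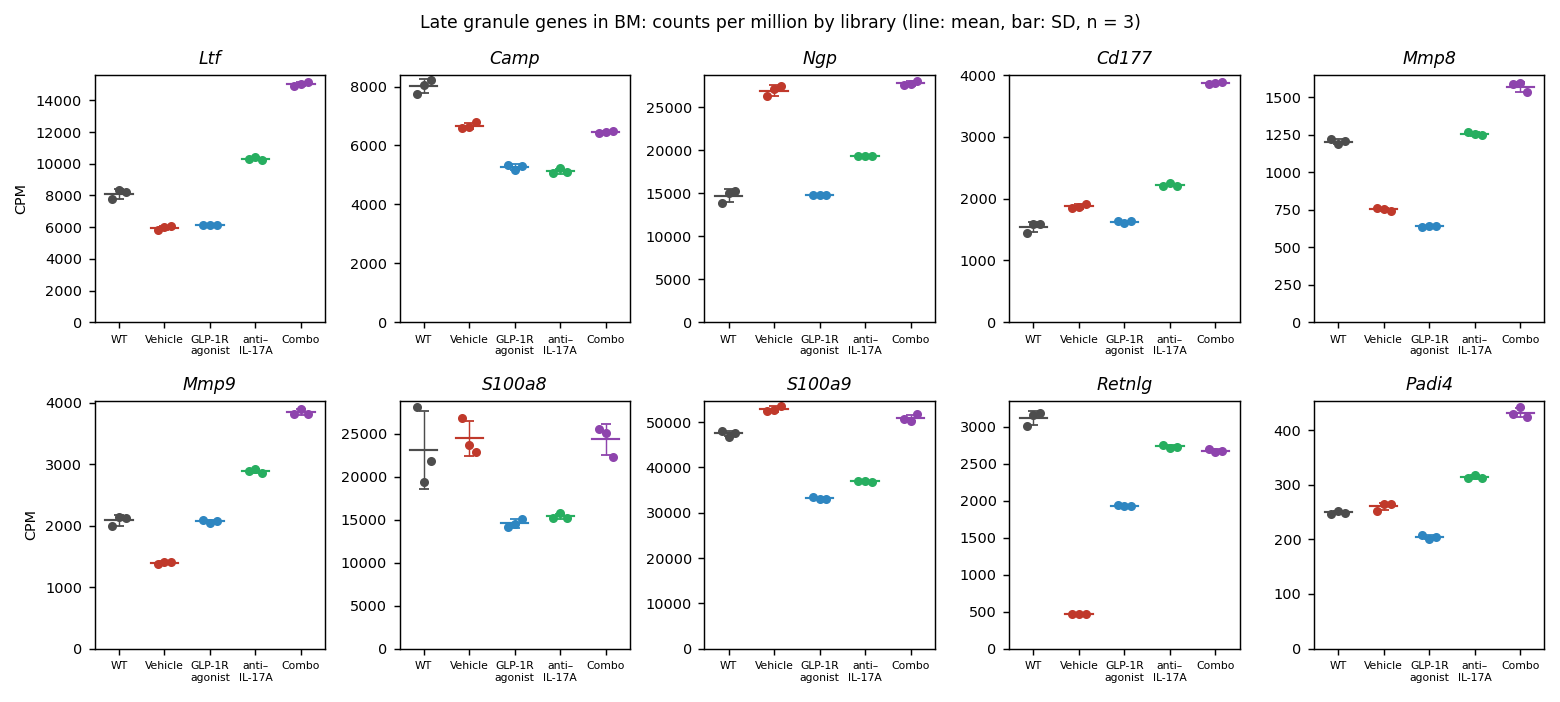
Each panel shows a late granule gene in BM, with CPM on a linear axis from 0, a point per library, a line at the mean and a bar of 1 SD (n = 3) for each of the 5 groups. Retnlg is lowest in Vehicle, Ltf, Cd177, Mmp8, Mmp9 and Padi4 are highest in Combo, and S100a8 and S100a9 are lowest in the GLP-1R agonist and anti–IL-17A groups.

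In ATMs the 10 genes together took 0.0535% to 0.0555% of counts in WT, 1.81% to 1.91% in Vehicle, 0.0243% to 0.0258% with the GLP-1R agonist, 0.0498% to 0.0517% with anti–IL-17A and 1.46% to 1.49% in Combo. The 3 libraries of a group were close together, and Vehicle and Combo stood far above the other 3 groups. Coefficients of variation of single members ran from 0.232% (Ngp in Vehicle) to 47.5% (Mmp8 in WT). Where the spread was small, ATM standard errors and p-values may not cover the variation between mice either. In bulk RNA, fewer neutrophils and less RNA of these genes per neutrophil cannot be told apart. In ATM Vehicle vs WT, 9 of the 10 genes were called, all higher, where 35.4% of all genes were called, 12.5% higher and 22.9% lower. In the GLP-1R agonist group vs Vehicle and in anti–IL-17A vs Vehicle all 10 were called lower, where 31.8% and 35.5% of all genes were called, 10.9% and 13.1% lower and 20.8% and 22.4% higher. In Combo vs Vehicle 5 were called (26.4% of all genes, 14.1% higher and 12.2% lower), Camp and Cd177 higher and Mmp8, S100a8 and S100a9 lower.

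S100a8 gave the largest difference of the 10 genes. It was at 60.04, 59.7 and 55.7 CPM in ATM WT and 9931, 9249 and 9588 in Vehicle (log2 fold change 7.36, SE 0.0455, adjusted p = 2.72e-21, edgeR). It was at 45.4, 46.1 and 46.8 with the GLP-1R agonist and 108, 102 and 102 with anti–IL-17A, and at 3665, 3737 and 3598 in Combo. Combo therefore lay below Vehicle (log2 fold change -1.39, SE 0.0348, adjusted p = 2.59e-14, edgeR) and far above both single agents and WT.

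S100a9 followed the same order of groups except that the difference between Combo and Vehicle was a little smaller. It was at 62.4, 54.1 and 50.3 CPM in WT and 6474, 6066 and 6494 in Vehicle (log2 fold change 6.83, SE 0.0756, adjusted p = 2.46e-18, edgeR). It was at 47.8, 46.5 and 45.6 with the GLP-1R agonist, 80.7, 88.3 and 90.2 with anti–IL-17A and 2727, 2777 and 2688 in Combo (log2 fold change -1.22, SE 0.0590, adjusted p = 8.1e-11, edgeR). Per kilobase, S100a8 and S100a9 were at 13818 and 12155 RPKM in ATM Vehicle, whereas in BM Vehicle S100a9 was the higher of the pair, at 101397 against 35262 RPKM.

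Among the specific granule genes, Ltf was at 50.5, 43.6 and 45.97 CPM in WT, 2133, 2014 and 2083 in Vehicle and 2294, 2286 and 2282 in Combo. Vehicle lay 44.5-fold above WT (log2 fold change 5.48, SE 0.0845, adjusted p = 6.79e-17, edgeR). The Combo libraries lay above those of Vehicle without overlap, by a difference that did not pass the test (log2 fold change 0.14, SE 0.0689, adjusted p = 0.11, edgeR). Ltf was at 11.97, 15.7 and 14.1 CPM with the GLP-1R agonist, below every WT library, and at 52.9, 51.9 and 46.4 with anti–IL-17A, overlapping WT.

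Ngp was at 22.3, 20.5 and 23.05 CPM in WT, 2569, 2558 and 2560.4 in Vehicle and 2757, 2814 and 2767 in Combo (Combo vs Vehicle, log2 fold change 0.12, SE 0.0544, adjusted p = 0.0892, edgeR). It was at 26.4, 22.1 and 26.7 with the GLP-1R agonist and 89.3, 84.9 and 81.8 with anti–IL-17A. As for Ltf, Combo and Vehicle did not overlap but their difference did not pass the test, and both stood far above the single agents. Camp was at 4.34, 3.49 and 3.64 CPM in WT, 165, 156 and 168 in Vehicle, 5.64, 3.67 and 4.87 with the GLP-1R agonist and 17.3, 17.6 and 15.8 with anti–IL-17A. In Combo it was at 336, 354 and 335 CPM, above Vehicle (log2 fold change 1.07, SE 0.0981, adjusted p = 1.96e-07, edgeR).

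Cd177 was the member with the largest rise from Vehicle to Combo in ATMs. It was at 8.94, 6.47 and 6.93 CPM in WT, 138, 129 and 140.3 in Vehicle and 485, 443 and 446 in Combo (log2 fold change 1.76, SE 0.184, adjusted p = 9.19e-07, edgeR). It was at 6.57, 6.94 and 12.9 with the GLP-1R agonist, overlapping WT, and at 26.6, 27.4 and 19.9 with anti–IL-17A.

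Mmp8 was at 5.99, 2.03 and 5.09 CPM in WT, 582, 561 and 553 in Vehicle, 7.20, 8.98 and 4.997 with the GLP-1R agonist, 12.9, 6.96 and 11.1 with anti–IL-17A and 264, 301 and 279 in Combo. The GLP-1R agonist group overlapped both WT and anti–IL-17A. Its fall from Vehicle to Combo lay at the fold-change limit (log2 fold change -1.01, SE 0.229, adjusted p = 0.00187, edgeR), and it was no longer called without Vehicle replicate 1 (-0.98), Combo replicate 1 (-0.96) or Combo replicate 3 (-0.9997). Mmp9 was the exception among the 10 genes in Vehicle vs WT. It was already at 217, 229 and 223 CPM in WT and at 416, 391 and 432 in Vehicle, a rise below the fold-change limit (log2 fold change 0.89, SE 0.0652, adjusted p = 1.08e-08, edgeR), and it gave 45.6% of the counts on the 10 genes in ATM WT against 1.82% in ATM Vehicle. It was at 73.6, 67.03 and 73.5 with the GLP-1R agonist and 59.5, 60.1 and 65.6 with anti–IL-17A, below WT, and at 402, 358 and 421 in Combo, overlapping Vehicle.

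Retnlg was at 51.00, 55.2 and 53.6 CPM in WT and 789, 745 and 784 in Vehicle (log2 fold change 3.86, SE 0.0717, adjusted p = 4.94e-16, edgeR). It was at 31.7, 32.7 and 35.6 with the GLP-1R agonist, 38.8, 45.8 and 38.8 with anti–IL-17A and 482, 505 and 471 in Combo. Unlike in BM, where Vehicle was the lowest group, Retnlg was highest in Vehicle in ATMs. Padi4 was at 13.5, 14.1 and 15.6 CPM in WT, 52.3, 60.8 and 45.96 in Vehicle, 4.26, 4.45 and 4.89 with the GLP-1R agonist, 8.36, 6.57 and 5.63 with anti–IL-17A and 45.3, 40.4 and 44.1 in Combo. Vehicle exceeded WT (log2 fold change 1.88, SE 0.158, adjusted p = 5.32e-08, edgeR), and the single agents lay below both.

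Across the 10 genes, log2 fold changes vs Vehicle in ATMs ran from -7.70 for S100a8 to -2.53 for Mmp9 with the GLP-1R agonist, and from -6.53 for S100a8 to -2.46 for Cd177 with anti–IL-17A. The members' median was -5.72 and -4.57, against 0.19 and 0.17 over all genes.

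**Figure D2:**
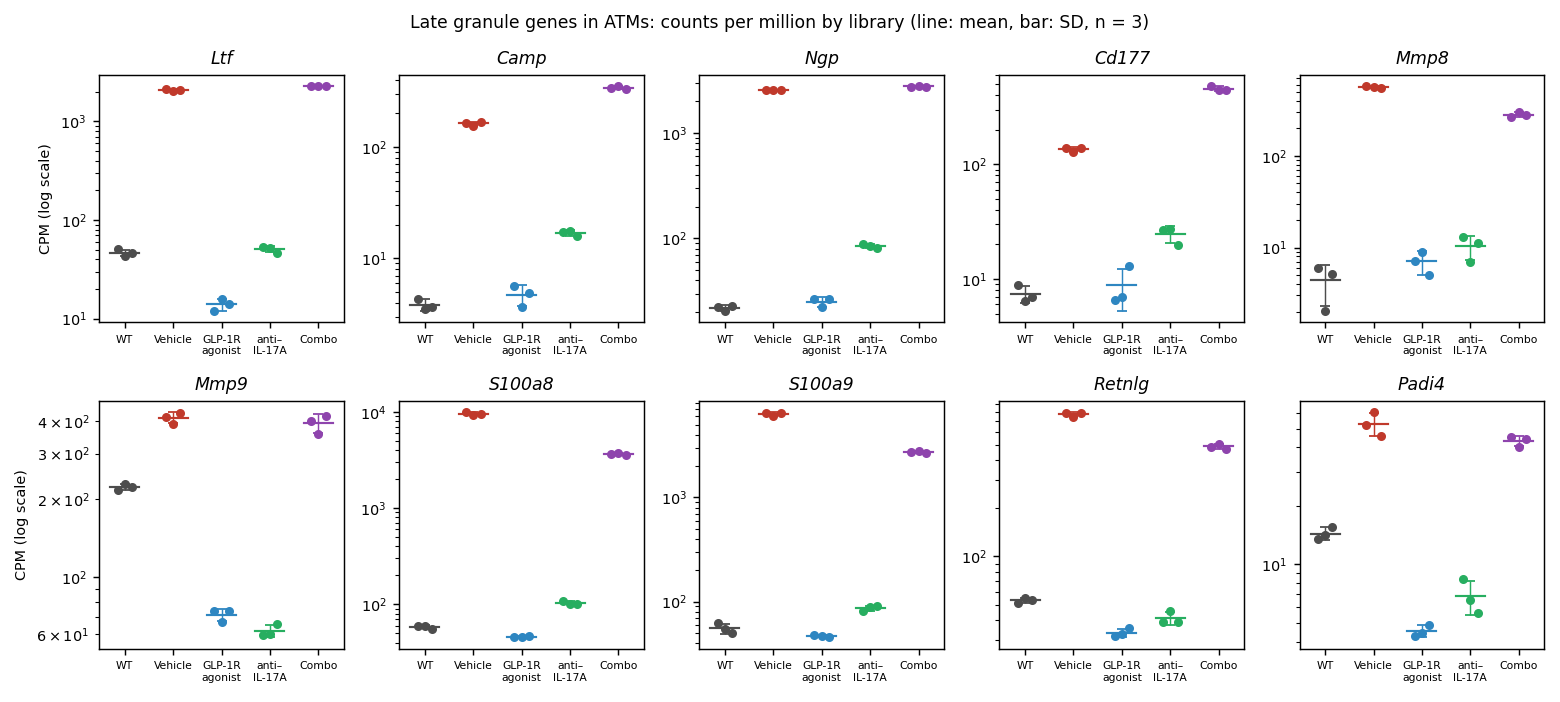
Each panel shows a late granule gene in ATMs, with CPM on a log axis, a point per library, a line at the mean and a bar of 1 SD (n = 3) for each of the 5 groups. Vehicle and Combo stand above WT, the GLP-1R agonist and anti–IL-17A in all 10 panels, with the smallest gap to WT for Mmp9.

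Between the single agents and WT in ATMs, the members did not move together. With the GLP-1R agonist, Ltf (log2 fold change -1.75), Mmp9 (-1.64) and Padi4 (-1.66) were called lower than in WT, where 15.1% of all genes were called, 7.7% higher and 7.42% lower. With anti–IL-17A, Camp (2.15), Ngp (1.96), Cd177 (1.73) and Mmp8 (1.25) were called higher and Mmp9 (-1.85) and Padi4 (-1.07) lower, where 18.7% of all genes were called, 9.65% higher and 9.04% lower. In Combo vs WT 9 of the 10 genes were called higher, and Mmp9 was higher by less than the fold-change limit (log2 fold change 0.82), where 21.6% of all genes were called, 7.08% higher and 14.5% lower.

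The scaling of the libraries mattered for Combo vs Vehicle in ATMs. TMM factors were 0.814 to 0.827 in Vehicle and 1.09 to 1.10 in Combo, and with library totals in their place the median log2 fold change of all genes moved from 0 to 0.41. Relative to those totals, 2 members were called in place of 5, Camp and Cd177, both higher, and Mmp8 (-0.59), S100a8 (-0.97) and S100a9 (-0.80) were lower by less than the fold-change limit. This scaling was chosen after the data were seen, and of all genes called 74.3% were higher under it against 53.6% under TMM. Under it, 9 members were called in ATM Vehicle vs WT and 10 in each single agent vs Vehicle, as with TMM scaling. The shares of all genes called that are given earlier hold for TMM scaling only.

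**Figure D3:**
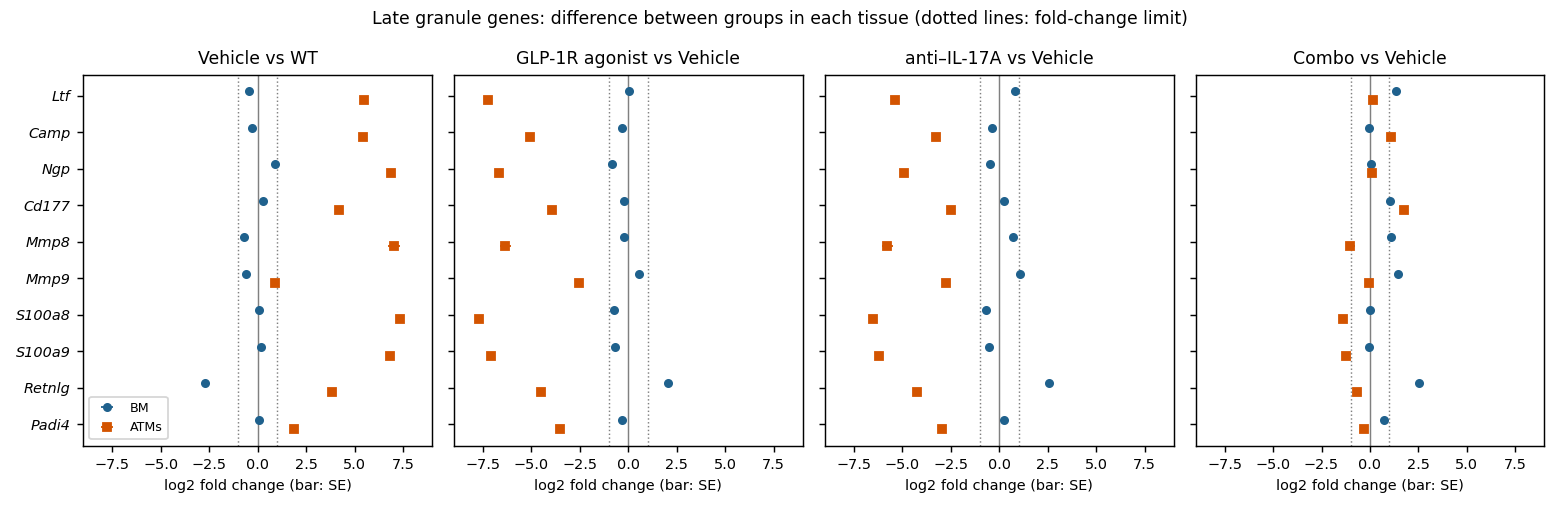
Log2 fold changes of the 10 genes are plotted with bars of 1 SE in the 4 comparisons, circles for BM and squares for ATMs, with dotted lines at the fold-change limit. ATMs lie far to the right in Vehicle vs WT and far to the left in each single agent vs Vehicle, while BM stays within 1 unit of 0 there apart from Retnlg and, with anti–IL-17A, Mmp9.

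Whether a contrast had the same size in ATMs as in BM was examined with an interaction term in 1 edgeR fit of all 30 libraries. That fit gave each gene the same spread in both tissues, although over all genes replicates varied more in ATMs than in BM. S100a8 went the other way, with an SE in Vehicle vs WT of 0.118 in BM and 0.0455 in ATMs. The standard errors and adjusted p-values of the joint fit therefore do not reflect the spread of ATMs alone. For members other than S100a8 they can make these differences look too certain. For Vehicle vs WT all 10 members differed between ATMs and BM, where 28.7% of the 13076 shared genes were called. The difference, ATMs minus BM, ran from 1.47 for Mmp9 to 7.71 for Mmp8 on the log2 scale. Retnlg was called in opposite directions, with log2 fold changes of -2.74 in BM and 3.86 in ATMs. For Combo vs Vehicle 7 members differed (28.1% of shared genes) under TMM scaling, and this test was not repeated on library totals. Camp was called higher in ATMs (1.07) and was at -0.05 in BM, and Ltf, Mmp8, Mmp9, S100a8, S100a9 and Retnlg had a lower log2 fold change in ATMs. Mmp8 was higher in Combo than in Vehicle in BM (1.06) and lower in ATMs (-1.01).

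Set against the marrow of the same group, on CPM of each library's unscaled total and as a description across tables scaled separately, Retnlg in ATM Vehicle was at 145% of its BM level. Mmp8 was at 66.3%, S100a8 at 34.5%, Ltf at 30.7%, Ngp at 8.38% and Camp at 2.15%. The median over the 10 genes was 22.02% in Vehicle and 13.2% in Combo, and 0.464% in WT. Primary granule genes in the same libraries had a median of 0.395% in Vehicle and 3.10% in Combo.

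**Figure D4:**
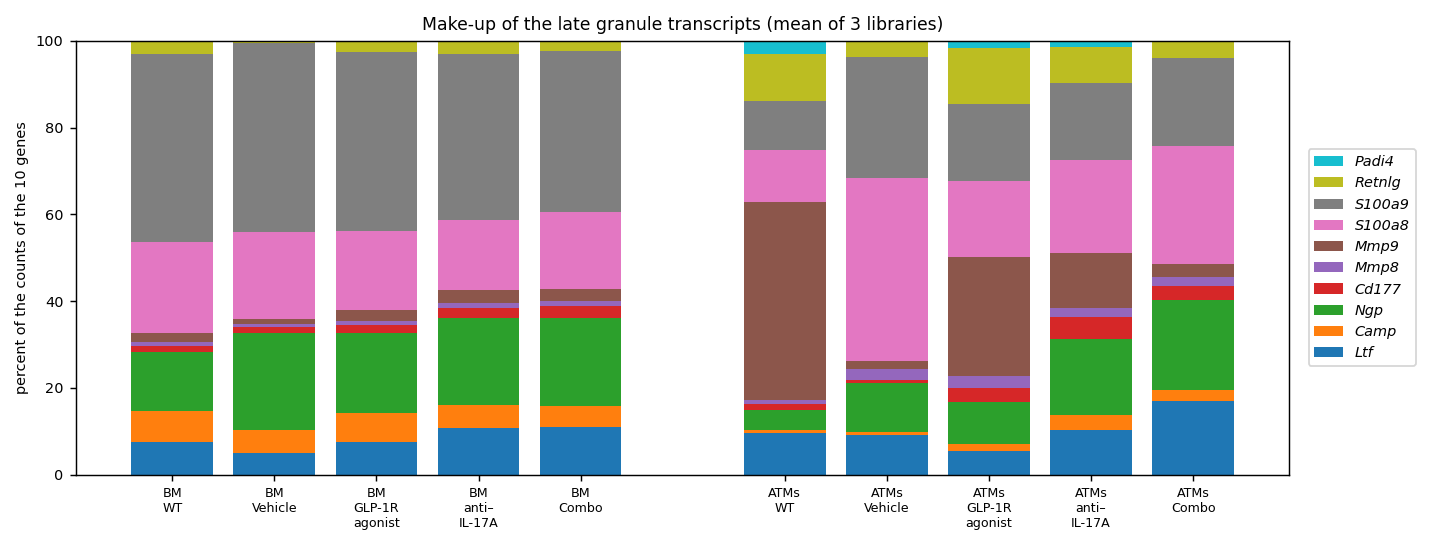
Each bar divides the counts on the 10 genes by gene, as the mean percent over 3 libraries, for 5 groups of BM and of ATMs. S100a9 gives the largest part in every BM group, Mmp9 in ATM WT and S100a8 in ATM Vehicle, with 42.3%.

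The remaining genes of the granulocyte program were read from lists. The shares of all genes called in each comparison, given above with the members, apply to these lists as well. Of 18 other specific and gelatinase granule genes, 13 were called higher and 1 lower in ATM Vehicle vs WT, led by Lcn2 (log2 fold change 6.54), which encodes the siderophore-binding protein lipocalin 2, Chil3 (6.33), a chitinase-like protein, and Olfm4 (6.15). Their median was 2.93, that of the members 5.44 and that of all genes -0.21. In the GLP-1R agonist group and with anti–IL-17A, 12 and 10 of them were called lower than in Vehicle and 2 and 4 higher. The 1 gene called lower in ATM Vehicle was Lyz2 (-1.21), lysozyme, which macrophages express as well. In Combo vs Vehicle 5 were called higher and 4 lower in ATMs, with Fcnb, a ficolin, at 3.28 and Lcn2 at -2.25. In BM Vehicle vs WT 5 were called higher and 1 lower, with Lrg1 at 2.25, Hp, haptoglobin, at 1.57 and Lyz2 at -1.90. In BM vs Vehicle, 5 were called lower with the GLP-1R agonist, where 9.08% of all genes were. With anti–IL-17A 3 were called lower and 1 higher (8.46% and 7.65% of all genes). In Combo 1 was called higher, Mmp25 (1.66), where 6.58% of all genes were.

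The list of mature neutrophil genes is called surface genes here, although Mxd1 on it does not encode a surface protein. It held 10 genes, of which Ly6g was not among the genes counted. All 9 measured genes were called higher in ATM Vehicle vs WT. Among them were Fpr1 (8.06), a formyl peptide receptor, Fpr2 (5.86) and the chemokine receptor Cxcr2 (5.81). The 9 genes summed to 269 to 277 CPM in WT, 3352 to 3434 in Vehicle and 1122 to 1149 in Combo. With the GLP-1R agonist they summed to 354 to 391 and with anti–IL-17A to 290 to 316. Mxd1 alone was at 1089 CPM of unscaled library totals in Vehicle and 145 in WT. The GLP-1R agonist and anti–IL-17A each had 8 of the 9 called lower than Vehicle. In Combo vs Vehicle 7 of the 9 were called lower, while all 5 primary granule genes were called higher. Those 5, Mpo, Elane, Prtn3, Ctsg and Ms4a3, summed to 19.4 to 25.9 CPM in ATM Vehicle and to 349 to 372 in Combo, led by myeloperoxidase (Mpo, log2 fold change 4.37). With the GLP-1R agonist and anti–IL-17A, 3 and 2 of the 5 were called lower than Vehicle. In ATM Vehicle vs WT all 5 primary granule genes were called higher, at levels that stayed low. In BM, 3 of the 5 primary granule genes, Mpo (1.70), Prtn3 (1.12) and Elane (1.00), were also called higher in Combo vs Vehicle and 0 were called in Vehicle vs WT. Of the 9 surface genes, the decoy receptor gene Il1r2 (4.14) was called higher in BM Vehicle vs WT and Csf3r (-1.65), the receptor of granulocyte colony-stimulating factor, and Clec4d (-1.22) lower. Vs BM Vehicle, the GLP-1R agonist group had 3 surface genes called lower, the anti–IL-17A group 1 higher and 1 lower, and Combo 2 higher and 1 lower.

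Of 7 granulocyte transcription factors, 3 were called higher in ATM Vehicle vs WT, Cebpe (2.71), Spi1 (2.51), which encodes PU.1, and Cebpb (2.43). In BM, Cebpe was at -0.47 in Vehicle vs WT and 0.63 in Combo vs Vehicle, both under the fold-change limit. Cebpb was called higher (1.55) and Cebpd lower (-1.11) in BM Vehicle, and Cebpd (1.35) and Gfi1 (1.08), a transcriptional repressor needed for granulocyte differentiation, were called higher in BM Combo vs Vehicle. In ATMs vs Vehicle, 1 factor was called higher and 3 lower with the GLP-1R agonist, 3 lower with anti–IL-17A, and 1 higher and 2 lower in Combo. Among 8 partners and inhibitors of the members, Timp1, the tissue inhibitor of matrix metalloproteinases, was called higher in Vehicle vs WT in BM (5.17) and in ATMs (5.57) and lower in Combo vs Vehicle in both (-3.13 and -2.78). Timp2 went the other way, at -1.56 in BM and -2.59 in ATMs in Vehicle vs WT. Ager, which encodes RAGE, was called higher in BM Vehicle (1.94) and lower in ATM Vehicle (-2.57) vs WT. In ATMs, 5 of the 8 were called higher and 1 lower with each single agent vs Vehicle, and 3 higher and 2 lower in Combo vs Vehicle. In BM these counts were 1 and 1 with the GLP-1R agonist, 1 and 2 with anti–IL-17A and 1 and 2 in Combo.

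Markers of other cells moved with these results in ATMs. The 10 macrophage markers summed to 2157 to 2278 CPM in WT, 1440 to 1548 in Vehicle, 4076 to 4182 with the GLP-1R agonist, 6006 to 6144 with anti–IL-17A and 3333 to 3401 in Combo, and 6 of the 10 were called lower and 2 higher in Vehicle vs WT, with Adgre1 among those lower. In the 3 Vehicle libraries the summed level of the members, 21929 to 23249 CPM, was thus above that of the macrophage markers, as it was in Combo (13330 to 13616 CPM), whereas in WT and both single agent groups it was below. Whether neutrophils among the sorted cells carry the members' levels was not tested. Erythroid markers in ATMs were also higher in Vehicle (6710 to 6804 CPM) and Combo (5423 to 5576) than in WT (3863 to 4085) and both single agent groups (1154 to 1533).

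**Figure D5:**
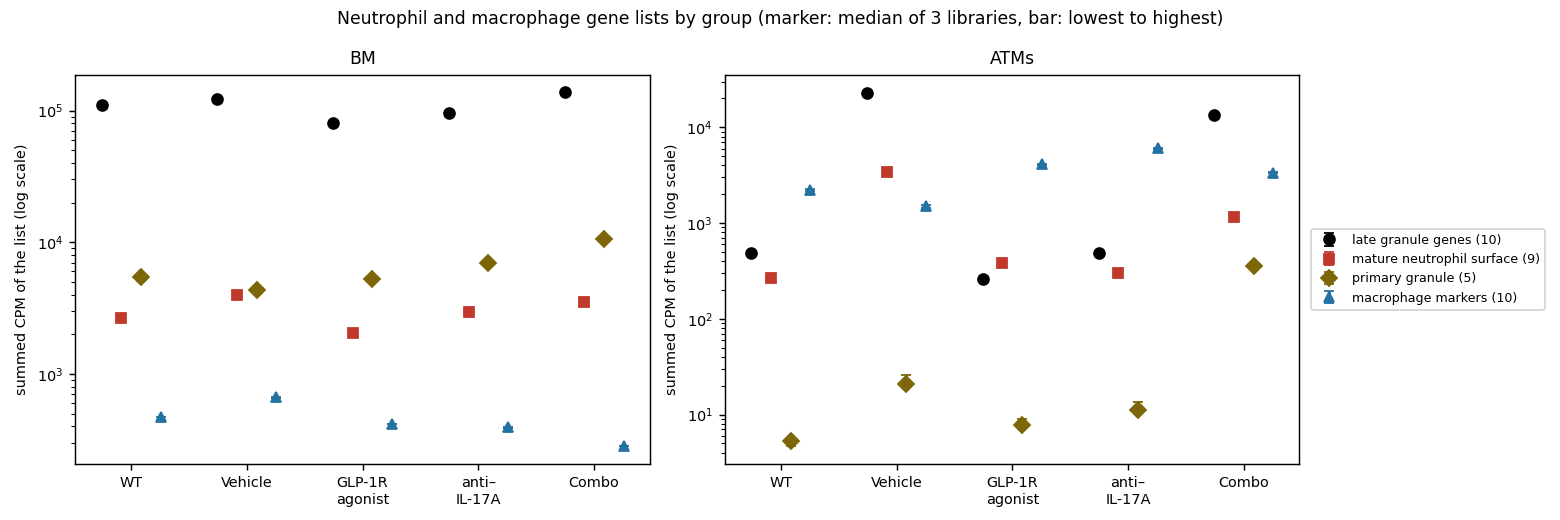
Summed CPM (log axis) is shown for the 5 groups of BM and ATMs. Markers are the median of 3 libraries, with a bar from the lowest to the highest. The lists are the late granule genes, surface genes of mature neutrophils (with Mxd1, not a surface gene), primary granule genes and macrophage markers. In ATMs the late granule and neutrophil surface lists peak in Vehicle, the primary granule list in Combo and the macrophage list with anti–IL-17A.

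Over the 15 libraries of a tissue, the genes outside the list with the highest Pearson correlation to the mean standardized log2 CPM of the members were, in ATMs, Stfa2l1 (0.992), Wfdc21 (0.992), Tmprss11b (0.989), Gp2 (0.988) and Chil1 (0.988). In BM they were Plin3 (0.995), Ganab (0.989), Ywhaz (0.986), Cmah (0.983) and Vasp (0.982). Among the 45 pairs of members, the correlation ranged from -0.49 to 0.94 in BM, with a median of 0.40, and from 0.68 to 1.00 in ATMs, with a median of 0.95. These values describe likeness over 15 libraries that share 5 group means and carry no test.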

How the data were processed

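RNA was sequenced from whole BM and from sorted ATMs, 3 mice per group as biological replicates in the labels, all in the same batch. Whether the 3 libraries of each BM or ATM group stand for separate mice was not tested. Reads were mapped by the authors to the mouse build mm10 (STAR 2.7.2a), who counted them per gene without strand by featureCounts 2.0.1, counting a read for every gene it overlapped, and deposited raw counts per gene as 1 table per tissue. Reads under a mapping quality of 10 were left out by the authors, so genes with near-identical copies lose reads.

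From these counts, edgeR 4.0.16 (R 4.3.3, limma 3.58.1) fitted the 15 libraries of a tissue with TMM scaling and robust quasi-likelihood tests. Filtering by expression removed 0 genes. Adjusted p-values are Benjamini-Hochberg values over all genes of a table, and a call needs an adjusted p below 0.05 and an absolute log2 fold change above 1. The tissues were compared as an interaction in 1 fit of 30 libraries. Scripts were tested on simulated data. RPKM used union exon lengths of a GENCODE mouse annotation one release older than the authors'. Alternatives were DESeq2 1.42.0, its size factors, library totals (added after the data were seen), other filters (at least 10 counts in every library, or none), fits of the groups compared alone, a replicate block and leaving out each library.

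The members and lists were chosen with earlier results of these data known. All 10 members are named. From each other list at most 3 called genes with the largest absolute change per comparison are named, together with defining markers and the 5 genes most like the members per tissue. Values of such a gene in further comparisons (Cebpe in BM), and of Lyz2 in ATMs, were added after its values were seen.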

Additional observations from a re-analysis of the deposited data

Results flagged for a closer look

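The following values were singled out because the effect of the same contrast differed between ATMs and BM by the interaction test in edgeR (adjusted p below 0.05 and a difference above 1 on the log2 scale), each given as the log2 fold change in ATMs minus that in BM. For Vehicle vs WT the difference was 5.92 for Ltf, 5.68 for Camp, 6.00 for Ngp, 3.91 for Cd177, 7.71 for Mmp8, 1.47 for Mmp9, 7.28 for S100a8, 6.68 for S100a9, 6.60 for Retnlg and 1.82 for Padi4. For Combo vs Vehicle it was -1.16 for Ltf, 1.16 for Camp, -2.03 for Mmp8, -1.49 for Mmp9, -1.34 for S100a8, -1.12 for S100a9 and -3.15 for Retnlg. These differences depend on the scaling. Library totals moved the median of all genes in Combo vs Vehicle by 0.41 in ATMs and by -0.0225 in BM, and the interaction was not refitted on them. This test gave each gene the same spread in both tissues, although over all genes replicates varied more in ATMs. Its adjusted p-values can therefore be too small for members other than S100a8, whose spread was larger in BM. Cell makeup differs between the tissues and its part in these differences was not tested.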

How the results depend on the processing

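With 3 libraries per group, precision rests on the spread between replicates, which over all genes was larger in ATMs than in BM. The small spread in BM, and of several members in ATMs, may not include the variation between mice. The p-values that rest on it can be too small. The counts of members called were within 1.5 times the reported ones under DESeq2, DESeq2 size factors in edgeR, both other filters and fits of the groups compared alone. Without a fold-change limit, BM counts rose to 9, 9, 10 and 8 for Vehicle vs WT, GLP-1R agonist vs Vehicle, anti–IL-17A vs Vehicle and Combo vs Vehicle. On library totals in place of TMM, a scaling added after the data were seen, ATM Combo vs Vehicle had 2 members called, with no share of all genes given under it. There Mmp9 (0.35) and Padi4 (0.12) turned from lower to higher, as did Cd177 in BM GLP-1R agonist vs Vehicle (0.0314), while S100a8 (-0.0430) and Padi4 (-0.0638) turned lower in BM Vehicle vs WT. Library totals moved the share of all calls that were higher from 35.2% to 19.3% in ATM Vehicle vs WT, from 63.1% to 76.0% in ATM anti–IL-17A vs Vehicle, from 45.6% to 62.0% in BM GLP-1R agonist vs Vehicle and from 47.5% to 60.2% in BM anti–IL-17A vs Vehicle, and the median of all genes by up to -0.44 (ATM Vehicle vs WT). Leaving out 1 library at a time gave 4 to 5 members called in ATM Combo vs Vehicle and 7 to 8 for the tissue difference of Combo vs Vehicle, with the other counts unchanged over these refits, at 9, 10 and 10 in ATMs, 1, 1, 2 and 5 in BM and 10 for the tissue difference of Vehicle vs WT. The tissue difference of Padi4 in Combo vs Vehicle passed the fold-change limit with DESeq2 size factors (-1.09). In BM, S100a8 ranged from -0.0215 (without WT replicate 2) to 0.25 (without WT replicate 1) in Vehicle vs WT, and in Combo vs Vehicle from -0.0974 (without Vehicle replicate 3) to 0.0648 (without Vehicle replicate 1), with 0.0517 without Combo replicate 3. Mmp8 in ATM Combo vs Vehicle was not called with at least 10 counts in every library (-0.98) or in the fit of the groups compared alone (-0.99). The correlation of deviations between same-numbered libraries had a median of -0.0026 in ATMs, where 0 of 30 pairs were above 0.1, and of -0.0019 in BM, where 5 of 30 were (highest 0.278), against 4 of 60 differently numbered BM pairs (highest 0.168). The numbers were to be taken as pairs only if every pair was above 0.1, so the main fits left the samples unpaired. This rule cannot exclude a partial pairing in BM. With the replicate block, counts were 1, 1, 2 and 5 in BM, 9, 10, 10 and 4 in ATMs (Mmp8 at -0.999 was not called), and 10 and 7 for the tissue differences. The causes were not tested.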
